A study of Mus musculus with 3 samples.

Results

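Transcripts of 10 dual specificity phosphatase genes, Dusp1, Dusp2, Dusp3, Dusp4, Dusp5, Dusp6, Dusp7, Dusp8, Dusp10 and Dusp16, were examined in the cytosolic RNA of mouse macrophages. The 10 genes were taken by symbol from the 55536 genes in the gene tables, of which 20685 had a value above 0 in at least 1 library. The libraries were ribosomal RNA-depleted total RNA libraries of bone marrow-derived macrophages from strain C57BL/6J, primary cells obtained by culturing marrow precursors. All 3 libraries belonged to 1 group, in which the cells first received lipid A at 100 ng/ml for 12 hours, then spent 12 hours without it, and then received it again at the same dose for 60 minutes. Lipid A is the membrane anchor of bacterial lipopolysaccharide and is sensed through Toll-like receptor 4. Each library started from 1 µg of RNA. The labels give age and sex as not collected and list the 3 biological samples under the same donor entry, so p-values measure only the spread between these samples, which may be technical. Cells that had received lipid A once or not at all were not analysed here, so every value below is a level after the repeated exposure and not a response to it.

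Dual specificity phosphatases remove phosphate from both the threonine and the tyrosine of the activation loop of mitogen-activated protein (MAP) kinases, which switches these kinases off. Most of those examined here carry an N-terminal kinase-binding domain that sets which MAP kinases they act on (ERK, JNK or p38). They also carry a C-terminal catalytic domain built around a cysteine. Several are themselves induced by the kinases they inactivate and so form a negative feedback loop. In macrophages, Dusp1 is known to restrain p38 and JNK and to limit cytokine production after lipopolysaccharide.

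The genes share the catalytic signature of the family, histidine, cysteine, any 2 residues, glycine, any 2 residues and arginine. Translation of the leading annotated coding transcript of each gene (GENCODE M21) gave exactly 1 match in each of the 10 genes. The coding stretches of 24 bases are shown because each encodes this signature, which all 10 have in common while their levels, lengths and transcripts differ. Capitals mark the codon of the catalytic cysteine, and each runs 5′ to 3′ on the coding strand.

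Dusp1: catTGCcaggccggcatctcccgg
Dusp2: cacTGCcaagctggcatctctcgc
Dusp4: cacTGCcaggccggcatctcccga
Dusp5: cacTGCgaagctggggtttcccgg
Dusp6: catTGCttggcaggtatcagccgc
Dusp7: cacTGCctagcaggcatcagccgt
Dusp8: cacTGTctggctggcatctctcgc
Dusp10: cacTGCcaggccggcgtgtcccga
Dusp16: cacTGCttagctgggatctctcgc
Dusp3: catTGCcgcgagggctacagccgc

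The cysteine codon was TGC in 9 genes and TGT in Dusp8. On mm10 the stretch lies at chr17:26506592-26506615 on the minus strand in Dusp1, where it encodes the signature with its cysteine at residue 258. In Dusp2 it lies at chr2:127337616-127337639 on the plus strand, with the cysteine at residue 261. The translated proteins ranged from 185 residues in Dusp3, a small phosphatase (also called VHR) that lacks the kinase-binding domain, to 663 residues in Dusp8. Over the 45 pairs of translated proteins the median identity, as a share of the shorter protein, was 35.1% and the lowest was 25.7%. The closest pair was Dusp6 and Dusp7, the cytoplasmic ERK-selective members, at 70.6%. Dusp1 was 64.6% identical to Dusp4 and 54.7% to Dusp2.

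The libraries held 46546422 to 53364168 expected counts on genes, and 3 counts, the limit that a count of 0 allows, corresponded to 0.0562 to 0.0645 CPM (counts scaled to a fixed library total), covering counting error only. All 10 macrophage markers examined stood above 1 TPM, from Cebpa at 13.6 ± 2.68 TPM (SD, n = 3) to Cd68 at 637 ± 94.4 and Lyz2 at 3525 ± 672. The T and NK cell, dendritic, erythroid and mast cell or basophil lists had 0 of 8, 0 of 6, 0 of 6 and 0 of 6 genes above it, the neutrophil list 2 of 8 (S100a8 and S100a9), and the B cell list 2 of 6 (Cd22 and Cd79b). Nuclear genes that code for protein took 34.5%, 29.0% and 27.5% of the TPM (reads per unit of transcript length scaled to a fixed library sum) in replicates 1, 2 and 3. The summed TPM of 4 nuclear non-coding RNAs was 27901, 27010 and 68714 in the same order, so replicate 3 carried the most of these RNAs. Nearly all of the sum was Rn7sk, at 27778, 26912 and 68232 TPM. Malat1 stood at 112, 90.6 and 452 TPM and Neat1 at 10.9, 7.10 and 29.7 TPM. Because TPM is a share, the spread of each member between libraries is also given on TPM rescaled over the protein-coding genes, and the order of libraries also on counts scaled by TMM (trimmed mean of M-values). Other values by library are on TPM alone.

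Of the 10 phosphatase genes, 9 stood above 1 TPM and Dusp10 stood below it. The test was limma on log2(TPM + 1), where 1 is the pseudocount, against the value at 1 TPM, with Benjamini-Hochberg adjusted p under 0.05 over all 20685 genes. Over all those genes 44.5% stood above the level and 50.4% below it. Among the 14387 protein-coding genes of these, 8775 stood above it and 4859 below. The number of members above 1 TPM was 5 in the second set of transcript tables, where each member had a lower mean TPM. It was 10 on TPM rescaled over protein-coding genes. The median of the 10 mean levels was 4.69 TPM, beside 0.68 TPM over all genes tested and 3.10 TPM over the protein-coding genes among them. The genes differed from each other far more than the libraries did, from a mean of 0.6 TPM for Dusp10 to 156 TPM for Dusp1.

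**Figure D1:**
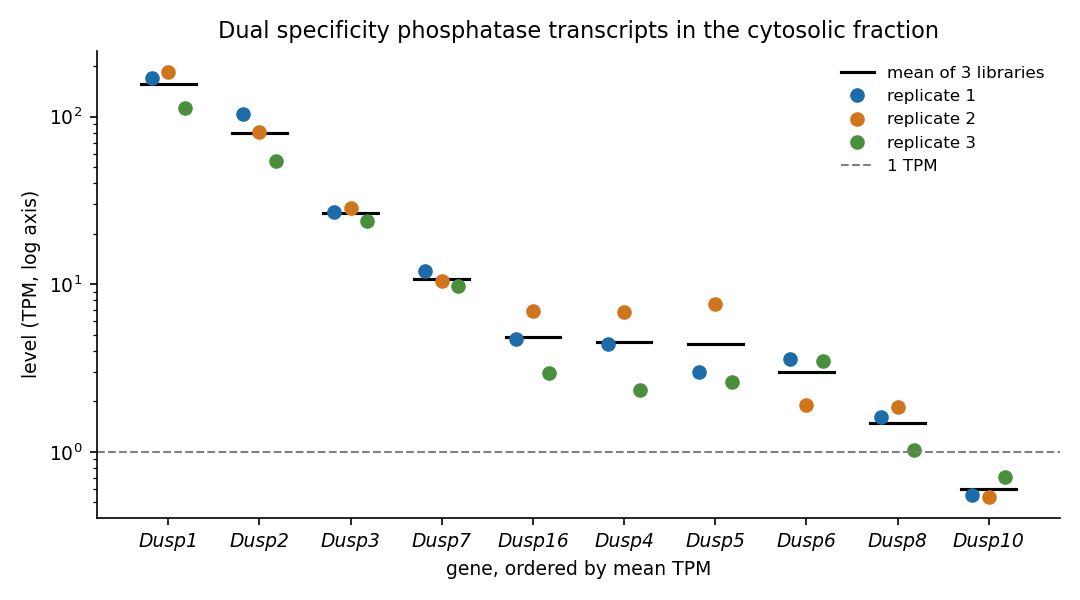
Level of each of the 10 phosphatase genes in TPM on a log axis, with 1 point a library and a bar at the mean of the 3 libraries; the dashed line is 1 TPM. Dusp1 and Dusp2 lie above the others in each library, and Dusp10 is the only gene with its 3 points below the line.

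The nuclear, inducible phosphatases Dusp1, Dusp2, Dusp4 and Dusp5 accounted for 83.4% ± 2.59 (SD, n = 3) of the summed TPM of the 10 genes. Dusp1 (MKP-1) dephosphorylates p38, JNK and ERK, and its gene lies at chr17:26505590-26562128 on the minus strand (mm10). Its level was 169.7 TPM in replicate 1, 185 TPM in replicate 2 and 113 TPM in replicate 3, a mean of 156 ± 37.8 (SD). Replicate 3 was the lowest, and all 3 values exceeded those of every other member. Dusp1 stood 6.26 ± 0.19 (SE) above 1 TPM on the log2(TPM + 1) scale (limma, adjusted p = 3.4e-08). It alone took 53.4% ± 2.37 (SD, n = 3) of the summed TPM of the members.

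Dusp2 (PAC-1), a phosphatase characteristic of haematopoietic cells, lies at chr2:127336159-127338376 on the plus strand. Its level was 104 TPM in replicate 1, 81.0 TPM in replicate 2 and 54.1 TPM in replicate 3, a mean of 79.7 ± 25.0 (SD). The 3 values differed from each other but none overlapped the range of Dusp1 above or Dusp3 below. Dusp2 stood 5.29 ± 0.20 (SE) above 1 TPM on the log2(TPM + 1) scale (limma, adjusted p = 2.2e-07). The ratio of Dusp1 to Dusp2 was 1.63, 2.28 and 2.09 in replicates 1, 2 and 3, and 1.60, 2.20 and 2.01 in the second set of transcript tables.

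Dusp4 and Dusp5 were lower by more than an order of magnitude. Dusp4 (MKP-2), at chr8:34807297-34819894 on the plus strand, had 4.42, 6.85 and 2.34 TPM in replicates 1, 2 and 3, a mean of 4.54 ± 2.26 (SD; limma, adjusted p = 0.0030). Dusp5, a nuclear phosphatase selective for ERK, lies at chr19:53529109-53542431 on the plus strand and had 2.98, 7.64 and 2.61 TPM, a mean of 4.41 ± 2.80 (SD; limma, adjusted p = 0.0056). Both were highest in replicate 2, and the Dusp5 values of the other libraries lay close together. The counts behind Dusp5 were 504, 1583 and 491. In the second tables neither passed the level test (limma, adjusted p = 0.074 for Dusp4 and 0.14 for Dusp5), and without replicate 1 Dusp4 did not pass (limma, adjusted p = 0.054).

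The cytoplasmic phosphatases that act mainly on ERK, Dusp6 and Dusp7, took 4.88% ± 1.23 (SD, n = 3) of the summed level. Dusp7 (MKP-X), at chr9:106368632-106375724 on the plus strand, had 12.0, 10.4 and 9.76 TPM in replicates 1, 2 and 3, a mean of 10.7 ± 1.16 (SD; limma, adjusted p = 1.5e-07). Dusp6 (MKP-3), at chr10:99263231-99267489 on the plus strand, had 3.60, 1.91 and 3.47 TPM, a mean of 2.99 ± 0.94 (SD; limma, adjusted p = 0.00084). Dusp7 exceeded Dusp6 in each library, by 3.34, 5.46 and 2.81 times, and their ranges did not overlap. Dusp6 was lowest in replicate 2, the library in which Dusp4 and Dusp5 were highest. In the second tables Dusp6 did not pass the level test (limma, adjusted p = 0.11).

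The phosphatases that act mainly on JNK and p38, Dusp8, Dusp10 and Dusp16, took 2.36% ± 0.396 (SD, n = 3) of the summed level. Dusp16 (MKP-7), at chr6:134715468-134792625 on the minus strand, had 4.69, 6.90 and 2.96 TPM in replicates 1, 2 and 3, a mean of 4.85 ± 1.97 (SD; limma, adjusted p = 0.00068). Dusp8, at chr7:142079490-142095843 on the minus strand, had 1.61, 1.84 and 1.02 TPM, a mean of 1.49 ± 0.423 (SD; limma, adjusted p = 0.035). Dusp8 was the member closest to the level from above. It did not pass without replicate 1 or without replicate 2 (limma, adjusted p = 0.23 and 0.26), and in the second tables it lay below 1 TPM by a difference of −0.21 on the log2(TPM + 1) scale that did not pass (limma, adjusted p = 0.12).

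Dusp10 (MKP-5), at chr1:184013302-184075636 on the plus strand, had 0.55, 0.54 and 0.71 TPM in replicates 1, 2 and 3, from 107, 128 and 152 expected counts. Its mean was 0.6 ± 0.0954 TPM (SD), below the level by a difference of −0.32 on the log2(TPM + 1) scale (limma, adjusted p = 0.0030). The counts were well above the limit of 3, so the gene was detected in each library. After TPM was rescaled over protein-coding genes, which raises every coding gene, Dusp10 stood above 1 TPM by 0.58 (limma, adjusted p = 0.0019). Dusp16 exceeded Dusp10 by 8.53, 12.8 and 4.17 times in replicates 1, 2 and 3.

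Dusp3, the small phosphatase that acts on ERK and JNK without a kinase-binding domain, was the third highest member. Its gene lies at chr11:101971143-101987013 on the minus strand and had 27.0, 28.4 and 23.9 TPM in replicates 1, 2 and 3, a mean of 26.5 ± 2.30 (SD; limma, adjusted p = 3.5e-08). The 3 libraries lay close together. An antisense gene, Gm20659, overlaps the end of Dusp3 and was listed at 7.72, 6.91 and 4.31 TPM, from 223, 249 and 135 expected counts against 6603, 8285 and 6067 for Dusp3. The strand setting of the counting is not given in the sources used here, so reads of the pair cannot be told apart. Ergic1, on the opposite strand, overlaps only the far end of the annotated extent of Dusp1, where the transcripts of Dusp1 were listed at 0.

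In order of mean TPM the genes ran Dusp1, Dusp2, Dusp3, Dusp7, Dusp16, Dusp4, Dusp5, Dusp6, Dusp8 and Dusp10. The ranges of the 3 libraries overlapped between Dusp16 and Dusp4, between Dusp4 and Dusp5, and between Dusp5 and Dusp6, so these neighbours did not differ beyond their spread. Within libraries, Dusp16 exceeded Dusp4 in 3 of 3, by 0.07, 0.01 and 0.25 on the log2(TPM + 1) scale, and Dusp4 exceeded Dusp5 in 1 of 3. Dusp5 exceeded Dusp6 in replicate 2 by 1.57 on the log2(TPM + 1) scale, and in replicates 1 and 3 the differences were −0.21 and −0.31. The other 6 neighbouring pairs did not overlap on TPM. Of these, Dusp6 and Dusp8 stood at 1.91 and 1.84 TPM in replicate 2. In the second tables their order in that library was reversed, at 0.99 and 1.02 TPM. With 3 libraries a sign-flip test cannot go below p = 0.25 (exact, two-sided), so no p is given for the order.

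Differences between the libraries went beyond counting error for 9 of the 10 genes, and each of the 10 had enough counts to be tested. In bulk RNA, fewer cells that express a gene and less of its RNA per cell cannot be told apart. The test was a chi-square test of the rounded expected counts against the library totals, with Benjamini-Hochberg adjustment over 13075 genes with at least 30 counts, and it called 69.3% of all those genes. The exception was Dusp7, with 2422, 2593 and 2266 counts (adjusted p = 0.75). In CPM, Dusp7 was 47.7, 48.6 and 48.7 in replicates 1, 2 and 3. Without replicate 2 Dusp3 and Dusp5 were also not called, and without replicate 3 Dusp10 was not called. The share of all genes called was also lower then, 51.3% without replicate 2 and 53.9% without replicate 3.

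The size of these differences separated the members. On TPM rescaled over coding genes, the log2 ratio of the highest to the lowest library had a median of 0.28 and a 90th percentile of 0.61 over 9173 coding genes at a mean of at least 1 TPM. It was 1.61 for Dusp5, 1.47 for Dusp4 and 1.14 for Dusp16, which placed them at percentiles 99.6, 99.4 and 98.5 of those genes. It was 0.94 for Dusp6, 0.77 for Dusp8, 0.70 for Dusp10, 0.63 for Dusp1, 0.62 for Dusp2 and 0.32 for Dusp3. Dusp7 had the smallest ratio on this scale, 0.05, at percentile 1.77. On TPM its ratio was 0.30 and Dusp3 had the smallest, 0.25, while on TMM-scaled counts they were 0.06 and 0.28. Leaving out the highest or lowest library can only lower this ratio, and some ratios rest on a single library. On TPM, that of Dusp5 was 1.55 with all libraries and 0.19 without replicate 2. That of Dusp6 was 0.91 and 0.05 without replicate 2, and that of Dusp1 was 0.71 and 0.12 without replicate 3. For Dusp4 it was 1.55, with 0.92 without replicate 2 and 0.63 without replicate 3. For Dusp16 it was 1.22, 0.66 and 0.56 in the same order.

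**Figure D2:**
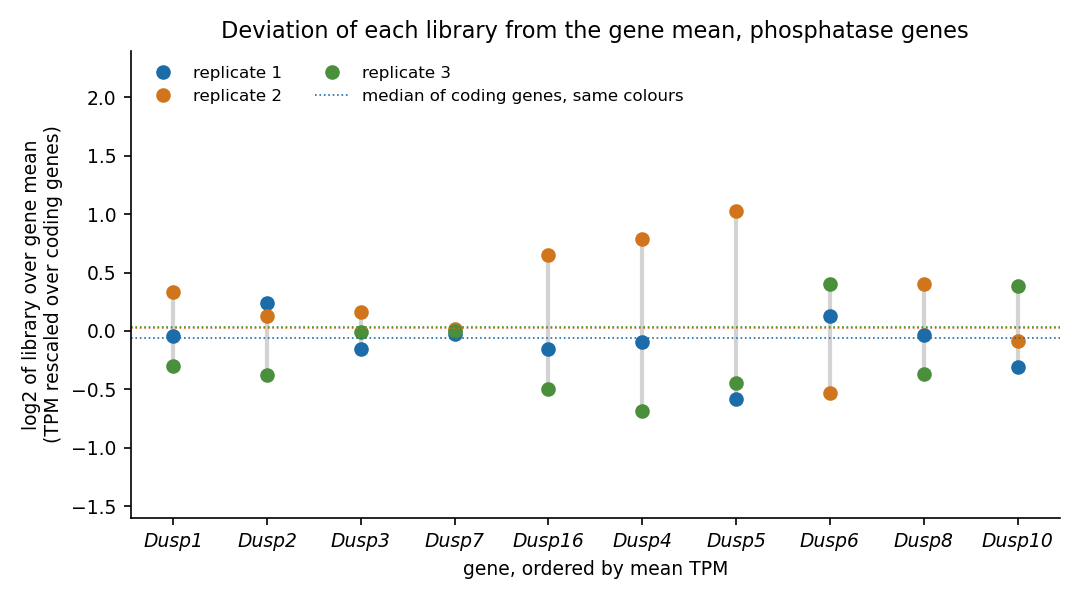
Log2 of each library over the mean of the 3 libraries (mean of log values) for the 10 genes, on TPM rescaled over protein-coding genes, with 1 point a library; dotted lines are the medians of the coding genes in each library. Replicate 2 is the highest point for Dusp1, Dusp3, Dusp4, Dusp5, Dusp8 and Dusp16 and the lowest for Dusp6. The 3 points of Dusp7 nearly coincide, with replicate 2 highest by little.

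Among the 9 members at a mean of at least 1 TPM, 6 were highest in replicate 2 on TPM, beside 21.1% of all genes at that level. The number was 7 on TPM rescaled over coding genes (39.4% of all genes), 6 on TMM-scaled counts (36.0%) and 7 in the second tables (65.1%). The 7 after rescaling include Dusp7, whose libraries hardly differed, at 34.9, 36.0 and 35.5 in replicates 1, 2 and 3. Replicate 3 was the lowest library for 8 of the 9 on TPM, for 5 after rescaling over coding genes and for 7 on TMM-scaled counts, beside 54.1%, 22.3% and 39.8% of all genes. The median log2 deviation of all genes at that level was 0.13, −0.04 and −0.10 in replicates 1, 2 and 3 on TPM and 0.02, 0.01 and −0.03 on TMM-scaled counts.

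Immediate early genes, which cells transcribe within minutes of a stimulus and of which Dusp1 is one, had a like order of libraries. Of 17 such genes outside the phosphatases at a mean of at least 1 TPM, 10 were highest in replicate 2 on TPM, 15 after rescaling over coding genes and 14 on TMM-scaled counts. Nr4a1, a nuclear receptor gene of this class, stood at 1.97, 13.9 and 2.16 TPM in replicates 1, 2 and 3, and Fos at 32.0, 64.6 and 37.0 TPM. These were named after their values were seen. The interferon-stimulated genes differed in another way. All 10 of a list were highest in replicate 1 on TPM, after rescaling over coding genes and on TMM-scaled counts. The share of all genes at that level highest in replicate 1 was 67.8%, 19.6% and 37.3% in the same order. Summed stromal markers stood at 0.06, 7.05 and 3.08 TPM in replicates 1, 2 and 3, with Col1a1 at 0, 2.53 and 1.28 TPM and 0 of 6 genes that passed the test above 1 TPM, 3 below it and 3 that could not be placed. The part of these markers and of nuclear RNA in the library differences of the phosphatases was not tested.

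**Figure D3:**
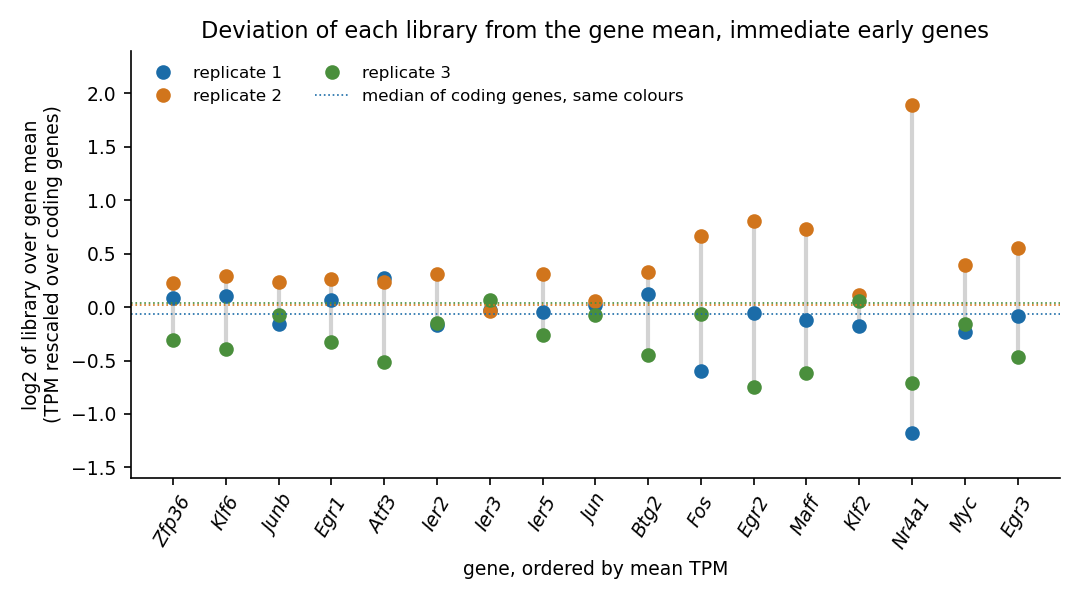
The same deviation, log2 of each library over the mean, for the 17 immediate early genes at a mean of at least 1 TPM, ordered by level, on the same axis as the plot of the phosphatase genes. Replicate 2 is the highest point for 15 of the 17, with the widest spread for Nr4a1.

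Genes whose pattern over the 3 libraries was closest to that of the 3 highest members were sought among 3980 other coding genes at a mean of at least 10 TPM, by the Euclidean distance between centred log2(TPM + 1) values. Closest to Dusp1 were Bcl2l11 (distance 0.0322), Mcee (0.0341) and Pnrc1 (0.0393), and 29 genes lay within a distance of 0.1. Closest to Dusp2 were Mxd1 (0.0524), Rps20 (0.0550) and Ifi205 (0.0572), with 13 genes within 0.1. Closest to Dusp3 were Hspd1, Itga5 and Polr1d, and 403 genes lay within 0.1. Of the 3 members, Dusp3 varied least between libraries.

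The transcripts behind each gene were described with the authors' percent of gene abundance per transcript. The same transcript led in both sets of transcript tables for all 10 genes. Dusp4 and Dusp5 have 1 annotated transcript each, and Dusp10 had its whole level in Dusp10-201. Dusp2-201 held 98.3% ± 1.31 (SD, n = 3) of Dusp2, and Dusp8-201 held 96.9% ± 5.42 of Dusp8.

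Dusp1-202, of 1990 bases in 4 exons with 1101 coding bases, held 78.9%, 73.1% and 71.0% of Dusp1 in replicates 1, 2 and 3, a mean of 74.3% ± 4.08 (SD). Most of the rest was in Dusp1-206, at 20.1%, 26.1% and 27.0%, a coding transcript that lacks 402 of the 563 bases of the first exon of Dusp1-202 and has 522 coding bases. In the second tables Dusp1-202 held 95.6% ± 1.95 and Dusp1-206 held 4.60%, 0.96% and 1.96%. The share of Dusp1-206 thus depended on how the transcripts were quantified, while its place after Dusp1-202 did not.

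Transcripts with a shorter coding region than the leading one also varied between libraries in other members, among them Dusp3, Dusp6, Dusp8 and Dusp16. Dusp8-202, with 695 coding bases against 1989, held 9.38%, 0% and 0% of Dusp8 in replicates 1, 2 and 3, from 7.2 expected counts in replicate 1. In the second tables it held 16.8%, 8.83% and 0%. Dusp3-201 held 80.5%, 55.2% and 50.1% of Dusp3 in replicates 1, 2 and 3, while Dusp3-206, which lacks the first exon of 188 bases and has 351 coding bases against 555, held 0%, 24.1% and 25.7%. In the second tables Dusp3-206 held 5.69% and 10.3% in replicates 2 and 3 and close to 0 in replicate 1, so the library order was the same at a smaller share. Dusp6-201 held 69.0%, 97.7% and 98.9% of Dusp6, and Dusp6-204, which lacks the second exon with its 438 coding bases, held 20.1%, 2.28% and 0%. In the second tables Dusp6-204 was at 15.8% in replicate 1 and 0% in both other libraries. In both sets of tables it was highest in replicate 1, where it had 116 expected counts in the first set. Dusp16-202, which lacks 966 bases of the last exon of Dusp16-201 (1014 coding bases against 1980), held 26.5%, 28.3% and 20.6% of Dusp16 and 7.11% ± 6.18 (SD, n = 3) in the second tables.

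Of the nuclear phosphatases, only Dusp1 and Dusp2 have transcripts annotated as retaining an intron, and these were a small share of both genes. Dusp2-202 held 0.9%, 0.93% and 3.19% of Dusp2 in replicates 1, 2 and 3, and 1.04%, 1.00% and 3.77% in the second tables. It had 38, 38 and 76 expected counts in the first set. The retained intron transcripts of Dusp1 together held 1.04%, 0.79% and 2.02%, and 1.44%, 1.25% and 2.85% in the second tables. For both genes replicate 3 had the highest share in both sets of tables. Replicate 3 was also the library with the highest Malat1, a nuclear RNA, at 452 TPM against 112 and 90.6 TPM in replicates 1 and 2. The part of nuclear RNA in these shares was not tested. Transcripts of Dusp16 annotated for nonsense-mediated decay held 5.63%, 6.86% and 6.07% of that gene, but from few counts. Dusp16-203, of 579 bases, had 6.1, 16.0 and 5.26 expected counts, or 0.40%, 0.60% and 0.51% of the counts of Dusp16. Dusp16-207 had 4.89, 0 and 0. Processed transcripts without a coding region held 13.5%, 11.8% and 7.99% of Dusp7 (3.24%, 3.68% and 5.24% in the second tables). In the first set this was Dusp7-204, with 4.02%, 3.50% and 2.28% of the counts of Dusp7.

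**Figure D4:**
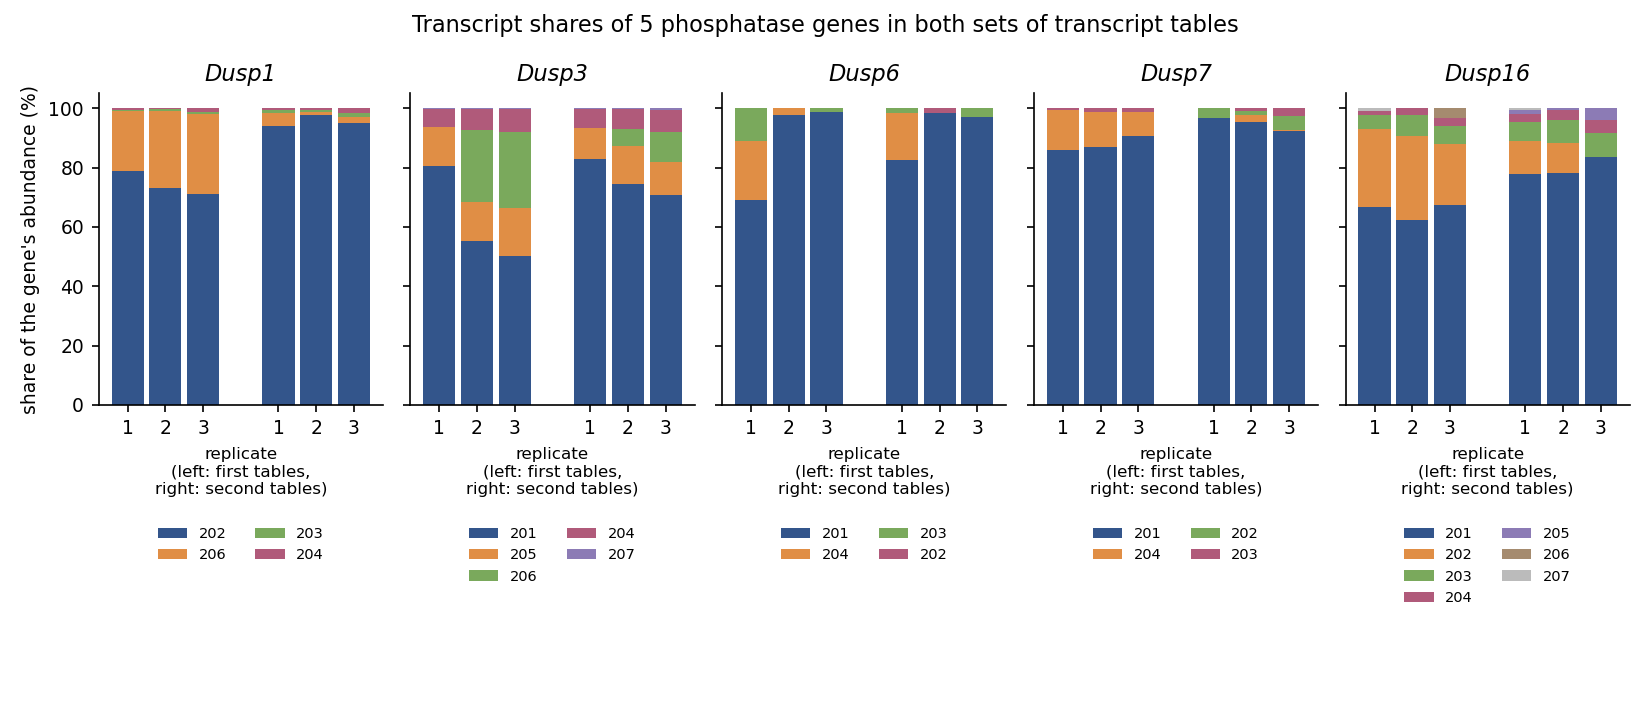
Share of the gene's abundance in each annotated transcript for 5 phosphatase genes, in percent, with 1 stacked bar a library; the left bars are the authors' percent and the right bars the shares from the second set of tables. The leading transcript (dark blue) is the same on both sides for each gene, and the Dusp1-206 share (orange) is 20.1% to 27.0% on the left and 0.96% to 4.60% on the right.

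Messenger RNAs of immediate early genes often carry AU-rich elements in their 3′ ends, through which proteins such as tristetraprolin (Zfp36) shorten their life. The pentamer ATTTA was counted in the annotated 3′ end of each leading transcript, with overlaps counted, on the transcript strand. It was found 4 times in the 690 bases of Dusp1 and 4 times in the 581 bases of Dusp2, or 5.80 and 6.88 per kilobase. Over 8879 coding genes at a mean of at least 1 TPM, members included, the median was 1.30 per kilobase, and the median of the 10 members was 1.52. Dusp8 had 5 in 2370 bases, Dusp3 4 in 3591, Dusp10 and Dusp16 3 each, Dusp4 2, and Dusp5 and Dusp6 1 each. Dusp7 had 0. At least 3 were present in 6 of the 10 members and in 34.0% of the background genes.

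The longer element TTATTTATT was found only in Dusp1, at 2 places, and in Dusp8, at 1 place, among the 10 members, and in 6.86% of the background genes. The windows of 29 bases around these matches are shown because they set Dusp1 and Dusp8 apart from the other members. Capitals mark the element.

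Dusp1, chr17:26506159-26506187, minus strand, mm10: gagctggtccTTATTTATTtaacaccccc
Dusp1, chr17:26505870-26505898, minus strand, mm10: gtttttacctTTATTTATTtttgtgtagg
Dusp8, chr7:142081715-142081743, minus strand, mm10: tttcgattttTTATTTATTtaagctagtg

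A match is a description of the annotated sequence, and no stability was measured. The Zfp36 transcript stood at 624, 579 and 378 TPM in replicates 1, 2 and 3, the highest of the immediate early genes.

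Promoter windows of RefSeq (GRCm38.p6, the assembly of mm10), 300 bases around the start site, were available for 9 members. They were searched on both strands for 7 motifs chosen with the library pattern known. The cyclic AMP response element TGACGTCA was found in Dusp1 and Dusp8 and in 1.79% of 32851 windows. The serum response element (CArG box), the site of serum response factor in early genes, was found in Dusp5, at 2 adjoining places, and in 1.63% of windows. The EGR element GCGGGGGCG was found in Dusp2 (2.91% of windows), and the GC box GGGGCGGGG in Dusp2, Dusp3, Dusp5, Dusp10 and Dusp16 (11.4%). The AP-1 element TGANTCA (7.81%), the TATA box TATAAA (13.6%) and an NF-κB element (4.51%) were found in 0 of the 9. These letters are absent from those windows only.

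The upstream parts of the 3 windows with a cyclic AMP or serum response element are shown, those of Dusp1, Dusp5 and Dusp8. On TPM rescaled over coding genes these 3 were highest in replicate 2. So were Dusp3, Dusp7 and Dusp16, whose windows hold neither element, and Dusp4, which has no window, though the libraries of Dusp7 hardly differed. The part of these elements in the library differences was not tested. The stretches shown cover bases −250 to −51 from the RefSeq start site, and capitals mark the elements.

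Dusp1, chr17:26508523-26508722, minus strand, GRCm38.p6: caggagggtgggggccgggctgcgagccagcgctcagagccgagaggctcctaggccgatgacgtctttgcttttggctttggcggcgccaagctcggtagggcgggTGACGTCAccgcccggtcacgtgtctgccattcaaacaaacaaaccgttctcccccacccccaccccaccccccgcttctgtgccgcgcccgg
Dusp5, chr19:53528895-53529094, plus strand, GRCm38.p6: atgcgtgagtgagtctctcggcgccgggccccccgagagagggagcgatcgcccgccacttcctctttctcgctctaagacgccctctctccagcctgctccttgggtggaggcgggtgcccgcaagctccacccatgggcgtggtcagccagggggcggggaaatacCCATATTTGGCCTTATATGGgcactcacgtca
Dusp8, chr7:142095335-142095534, minus strand, GRCm38.p6: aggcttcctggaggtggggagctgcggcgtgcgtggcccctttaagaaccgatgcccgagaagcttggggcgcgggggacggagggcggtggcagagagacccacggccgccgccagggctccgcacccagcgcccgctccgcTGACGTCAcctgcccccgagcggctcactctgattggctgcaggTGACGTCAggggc

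The cyclic AMP response element of Dusp1 lies at −143 to −136, and those of Dusp8 begin at −107 and −63. The serum response elements of Dusp5 lie at −82 to −73 and −72 to −63. Binding of a factor was not measured in these libraries.

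The kinases on which these phosphatases act, and the kinases above them, were for the most part above 1 TPM, as were 8775 of 14387 protein-coding genes. Of the 10 MAP kinases, 6 stood above it and 3 below, and Mapk10 (JNK3) was listed at 0. The highest were Mapk3 (ERK1) at 35.2 ± 3.82 TPM (SD, n = 3) and Mapk14 (p38α) at 27.5 ± 3.08 TPM, and the lowest of those above 0 was Mapk13 (p38δ) at 0.0233 ± 0.0115 TPM. Variation beyond counting error was called for 3 of the 7 MAP kinases that could be tested, beside 9 of the 10 phosphatases and 69.3% of all genes. Each phosphatase except Dusp1 and Dusp2 thus had a lower mean level than Mapk3.

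Of 7 MAP kinase kinases, 6 stood above 1 TPM and Map2k6 at 0.94 ± 0.0458 TPM (SD, n = 3) could not be placed. Of 11 MAP3 kinases and Raf kinases, 10 stood above it, led by Map3k1 at 22.5 ± 2.22 TPM and Map3k8 at 17.9 ± 4.67 TPM, and the lowest, Map3k5, could not be placed at 1.09 ± 0.125 TPM. Map3k8 (Tpl2) links the lipopolysaccharide receptor to ERK. Of 10 kinases activated by MAP kinases, 8 stood above 1 TPM, and Mapkapk2 (MK2), the main kinase downstream of p38, was the highest at 92.5 ± 19.8 TPM, followed by Mknk2 at 26.3 ± 0.776 TPM, with Rps6ka5 lowest at 0.72 ± 0.19 TPM. Mapkapk2 lay between Dusp1 and Dusp2 in mean TPM, and its 71.1 to 110.3 TPM overlapped the range of Dusp2.

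The other inhibitors of the pathway were uneven. Of 7 Sprouty and Spred genes, which restrain ERK signalling upstream, Spred1 at 25.6 ± 7.73 TPM (SD, n = 3) and Spred2 at 3.37 ± 0.831 TPM stood above 1 TPM. Of the rest, 3 stood below it, with Spry3 at 0.05 ± 0.0173 TPM the lowest above 0, Spry2 could not be placed at 0.96 ± 0.167 TPM, and Spry4 was listed at 0. Of 8 other phosphatases of MAP kinases, 6 stood above 1 TPM, led by Ppm1a at 21.1 ± 3.45 TPM and Ppp2ca at 15.7 ± 1.47 TPM, and Ptpn5 was the lowest above 0 at 0.03 ± 0.0265 TPM.

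The 16 other DUSP and STYX genes, mostly atypical phosphatases without a kinase-binding domain, had 7 genes above 1 TPM, 6 below it and 3 listed at 0 (Dusp15, Dusp21 and Dusp26). Their median level was 0.293 TPM, Dusp27 was the lowest above 0 at 0.01 ± 0.01 TPM, and the highest, Dusp11 at 7.18 ± 1.08 TPM (SD, n = 3) and Dusp28 at 6.95 ± 2.22 TPM, lay below Dusp7. Dusp9, the remaining cytoplasmic ERK phosphatase with a kinase-binding domain, stood at 0.0467 ± 0.0153 TPM, below 1 TPM (limma, adjusted p = 7.5e-10). Dusp9 was named after its value was seen.

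**Figure D5:**
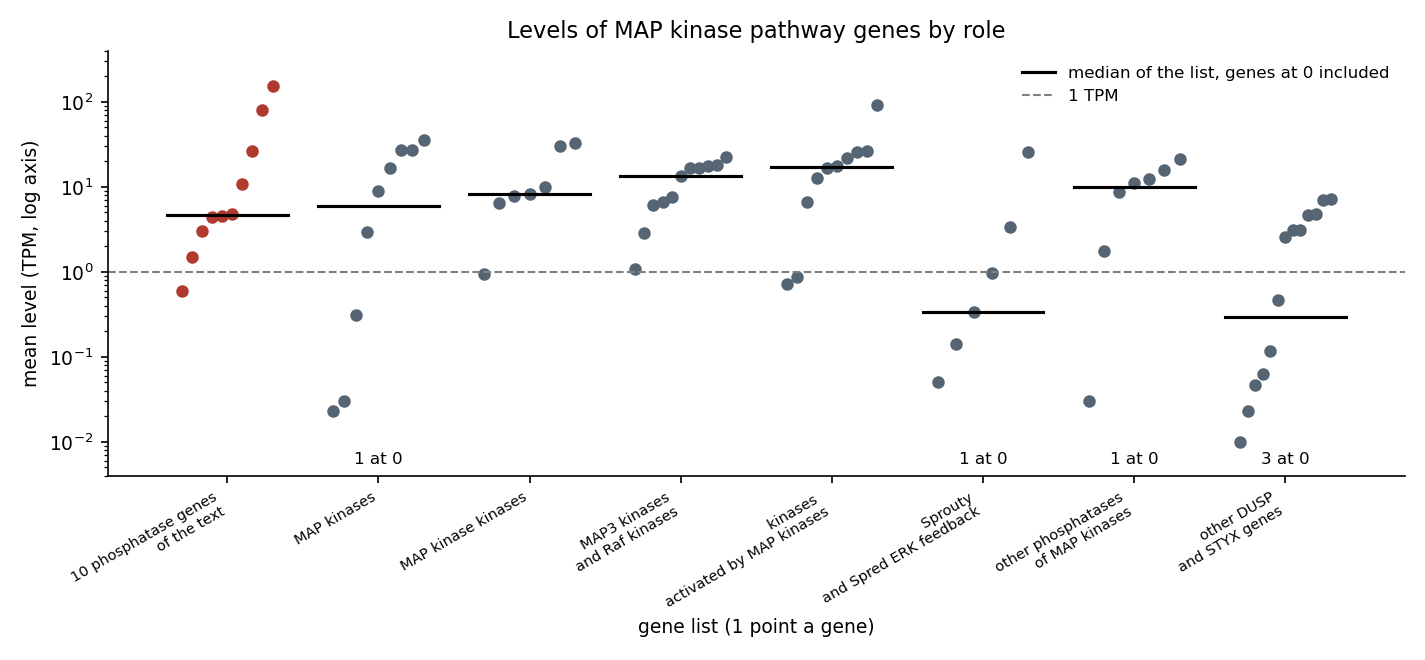
Mean level in TPM, on a log axis, of the 10 phosphatase genes (red) and of 7 lists of MAP kinase pathway genes (grey), with 1 point a gene, a bar at the median of the list and the number of genes listed at 0 at the foot. Dusp1 is the highest gene of all the lists drawn, and the 16 other DUSP and STYX genes all lie below Dusp7.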

How the data were processed

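The deposited text names mm10 and GENCODE M21 as the build and annotation of the gene table and the 2 transcript tables of a library. Expected counts and TPM (per kilobase of effective length, scaled over genes, tRNA entries and control sequences) are the authors' values, per the file headers, quantified after alignment to the transcriptome. The percent of gene abundance per transcript was deposited by the authors in the transcript tables. A second set of transcript tables, made directly from the reads, holds the authors' estimated counts and TPM and was summed to genes here. For aligner, tools, versions and strand the answer is the same: not given in the sources used here. With strand unknown, overlapping genes cannot be told apart, and a large share of small RNA lowers the TPM of every messenger RNA.

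Members and lists were chosen with earlier results of these data known. All 10 members are named, and of each pathway list the 2 highest genes and the lowest above 0. The 3 coding genes nearest in pattern to each of the 3 highest members are named too, and for the other lists the same rule gave the genes to choose from, not all of which are printed. Mapk10, Spry2, Spry4, Dusp9, Dusp15, Dusp21, Dusp26, Nr4a1 and Fos fall outside it and were named after their values were seen. The level test used limma 3.58.1 under R 4.3.3 (intercept only, trend and robust moderation). The noise test was a chi-square test with 2 degrees of freedom on rounded expected counts, and both tests were checked on simulated data. TMM factors came from edgeR 4.0.16 and size factors from DESeq2 1.42.0. The settings varied were the pseudocount (0.1), a filter at a mean count of 10, coding-rescaled TPM, the second tables, other scalings, shares of expected counts, no count minimum, and each replicate left out. Proteins were translated from GENCODE coding sequences and aligned with Biopython 1.88 (BLOSUM62, gap opening 11, extension 1) in place of RefSeq proteins. Sequences come from the GENCODE M21 transcripts, with promoters from RefSeq.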

Additional observations from a re-analysis of the deposited data

How the results depend on the processing

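The number of members above 1 TPM was 9, 5 in the second tables and 10 after rescaling over coding genes. Each member had a lower mean TPM in the second tables, such as 67.0 against 156 for Dusp1 and 1.33 against 2.99 for Dusp6. There 8 members had a mean above 1 TPM, of which 5 passed the test. The cause of the lower number in the second tables was not tested. Leaving out each replicate gave 7 to 9. Dusp1 took 53.4% of the summed TPM of the members, 47.9% of their summed expected counts, which are not divided by length, and 52.1% to 54.4% when each replicate was left out. The number varying beyond counting error stayed at 9 under TMM, DESeq2 factors, the second tables and no count minimum. Over all genes tested, these settings called 67.0%, 67.1%, 72.1% and 45.5% in that order. With each replicate left out the number was 7 to 9, beside 51.3% to 53.9% of all genes tested. The difference from 1 TPM changed sign for Dusp8 in the second tables (−0.21, limma adjusted p = 0.12) and for Dusp10 after rescaling over coding genes (0.58, limma adjusted p = 0.0019). Of 70 level results for single members under an alternative, 62 kept their direction and side of the threshold, as did 44 of 50 leading transcript shares and 54 of 70 library ratios within their spread. No paired analysis was possible because there was 1 group. Depth limits Dusp10 most, at 107 to 152 counts.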
